A study of Mus musculus with 8 samples.

Results

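The 7 genes described here, Prdm1, Prdm14, Tfap2c, Sall4, Kit, Alpl and Fut4, are the classical specification factors and surface markers of mouse primordial germ cells. They were taken by symbol, through the GENCODE M21 annotation, from a deposited table of read counts for 55401 genes, and all 7 were found and passed the low-count filter that left 24005 genes. Expression was measured by RNA sequencing of total RNA depleted of ribosomal RNA, in prospermatogonia from mouse embryos at E17.5 (embryonic day). There were 4 libraries of the genotype Tet1-/- (KO 1 to KO 4) and 4 of Tet1+/+ (WT 1 to WT 4), which the labels place in 1 batch with no treatment named. Library names begin with a number whose meaning is not stated, and KO 1 and WT 1 share theirs. The kind of Tet1 allele, the strain and the way the cells were isolated could not be taken from the labels, which also leave out whether each library came from its own animal, so the p-values measure the spread between these libraries.

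Primordial germ cells are the embryonic founders of sperm and eggs. BMP signals induce the transcriptional repressor PRDM1 (also called BLIMP1) in a few epiblast cells, and PRDM1, PRDM14 and TFAP2C (AP-2gamma) act together to silence the somatic programme and restore genes of pluripotency. SALL4 is a zinc finger factor of pluripotent and germ cells. The receptor tyrosine kinase KIT, bound by KIT ligand from somatic cells, keeps migrating germ cells alive. ALPL is tissue-nonspecific alkaline phosphatase, the enzyme behind the classical histochemical stain of these cells, and FUT4 is a fucosyltransferase that can build the Lewis x glycan known as SSEA1. After the germ cells settle in the fetal testis they become prospermatogonia, stop dividing and gain new DNA methylation, and much of this early programme is then turned down.

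Total counts lay between 13820764 and 20115250 per library, and a count of 3, the limit that a count of 0 allows, was worth 0.146 to 0.221 CPM (counts relative to the TMM-scaled library size), for counting error only. Tet1 itself was counted at 30.2 to 34.2 CPM in the WT libraries and at 75.8 to 147 CPM in the KO libraries. Its transcript was thus not lost in the libraries labelled Tet1-/-. These counts cover the whole gene and the kind of allele is not known, so they cannot check the label. KO and WT below therefore mean the libraries labelled KO and the libraries labelled WT, and every direction rests on those labels. Germ cell markers were abundant in both groups, with a summed level over 10 genes of 2507 to 2962 CPM in WT and 2191 to 2695 CPM in KO. These 10 genes did not move together. With edgeR at an adjusted p under 0.05, 2 were higher, 3 lower and 5 did not pass. That is 20% higher and 30% lower, against 25.3% and 28.2% of all tested genes. Of the genes within the abundance range of the 7, 36.9% were higher and 24.6% lower. Steroidogenic (Leydig) markers stood apart in KO 4, at a sum over 6 genes of 1803 CPM against 14.9 to 22.7 CPM in the other KO libraries and 16.5 to 32.5 CPM in WT. Sertoli markers (8 genes) were also highest there, at 95.8 CPM against 16.7 to 29.4 CPM in the other 7 libraries. That excess lay mainly in Inha and Gata4 and was not a rise of the whole list. In KO 4 Inha was at 58.3 CPM against 2.21 to 2.36 CPM in the other KO libraries, and Gata4 at 17.4 CPM against 7.15 to 7.95 CPM. The difference of each of the 7 genes is therefore also given without KO 4, while levels per length and profiles include it.

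All 7 genes rose in the libraries labelled KO with edgeR at an adjusted p under 0.05, in a comparison where 25.3% of all tested genes were called higher and 28.2% lower (53.5% in either direction). Among the 14233 tested genes within the abundance range of the 7, 36.9% were higher and 24.6% lower. The median difference of the 7 was 0.73 on the log2 scale (KO minus WT) against -0.05 over all tested genes. Every KO library lay above every WT library for 6 of the 7, Prdm1 being the exception, and 23.2% of all tested genes showed that separation, while 25.1% had every KO library below every WT library. Prdm14 had the largest difference of the 7, followed by Tfap2c and Fut4, while those of Alpl, Sall4, Kit and Prdm1 were below 1. In bulk RNA such a change in level cannot be told apart from a change in the share of cells that express the gene. Without KO 4 all 7 were still called higher. Of all called genes 47.3% were higher with TMM scaling, 31.2% with upper-quartile, 35.3% with total-count and 38.1% with ribosomal protein scaling. All 7 differences stayed above 0 under each of these.

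**Figure D1:**
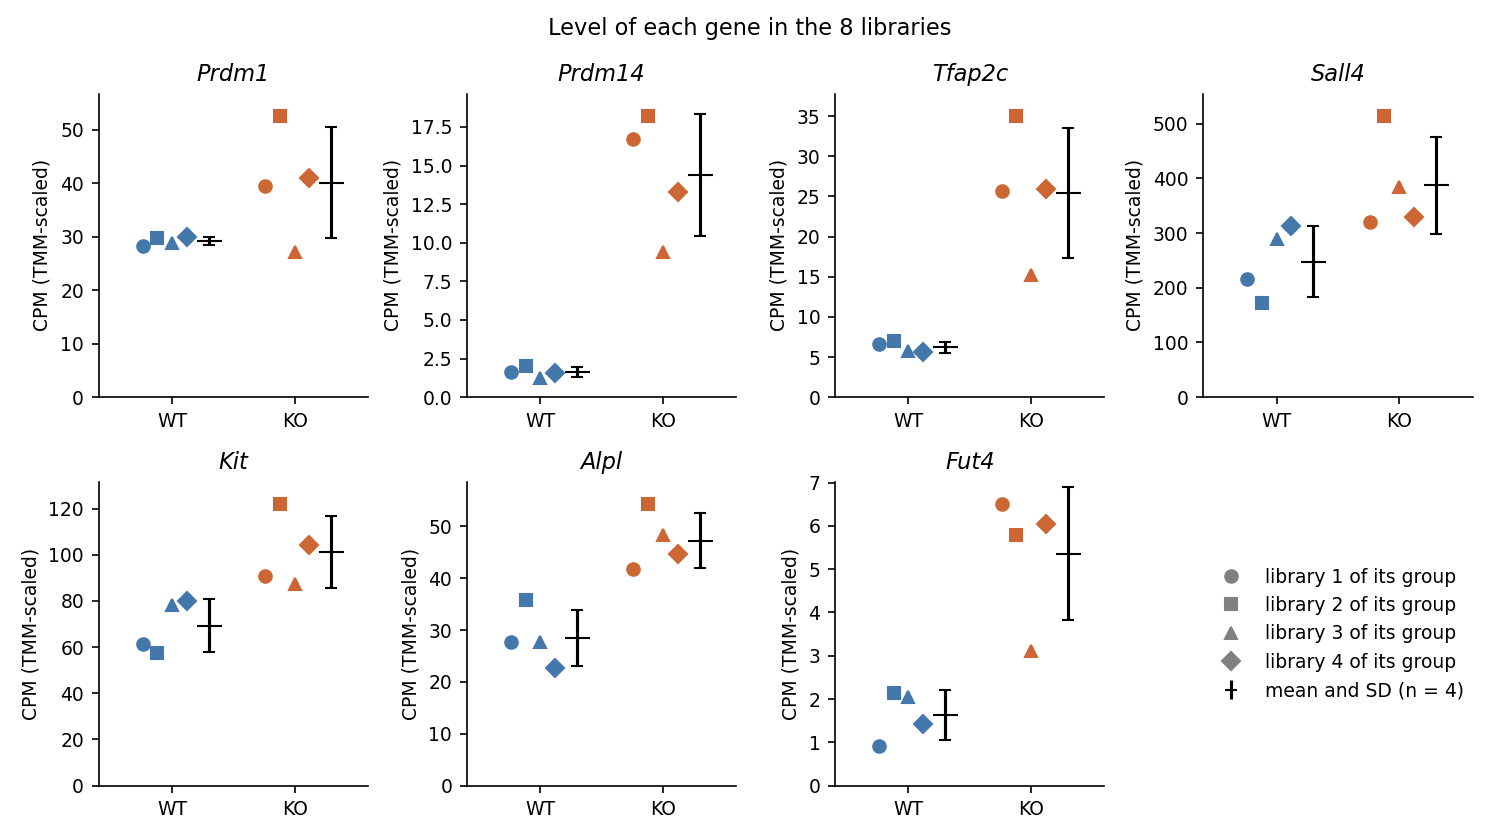
Level of each of the 7 genes in CPM (TMM-scaled, linear axis from 0) in the 4 WT and 4 KO libraries, with symbols for the library number and bars for the mean and SD. Prdm14 runs from 1.27 to 2.03 CPM in WT and from 9.37 to 18.2 CPM in KO, while for Prdm1 KO 3 lies below the WT libraries.

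Prdm14 encodes a PR-domain protein that, with its corepressor, sustains naive pluripotency genes and represses de novo methylation in early germ cells. Its level in the WT libraries was 1.64, 2.03, 1.27 and 1.55 CPM in WT 1 to WT 4, from 24 to 35 counts each. In the KO libraries it was 16.7, 18.2, 9.37 and 13.3 CPM in KO 1 to KO 4, from 127 to 321 counts. The lowest KO library was thus 4.61 times the highest WT library. The mean rose 8.87-fold, from 1.62 ± 0.317 to 14.4 ± 3.93 CPM (SD, n = 4), with a log2 difference of 3.15 (SE 0.250, edgeR adjusted p = 1.2e-06). Without KO 4 the difference was 3.21, and over 5 other scalings it ran from 2.90 to 3.35. Prdm14 (ENSMUSG00000042414.7) lies on chromosome 1, 13113457 to 13127163, minus strand, in GRCm38.

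Tfap2c encodes AP-2gamma, which acts downstream of PRDM1 and is needed for primordial germ cells to persist. It had 6.61, 6.97, 5.70 and 5.57 CPM in WT 1 to WT 4. In KO 1 to KO 4 it had 25.6, 35.0, 15.2 and 25.9 CPM, so that KO 3 was the lowest and KO 2 the highest of the KO libraries, as for Prdm14. The mean rose 4.10-fold, from 6.21 ± 0.687 to 25.4 ± 8.09 CPM (SD, n = 4), and the log2 difference was 2.03 (SE 0.220, edgeR adjusted p = 1.14e-05). Groups were well apart, the lowest KO value being 2.18 times the highest WT value. Without KO 4 the difference was 2.05. Tfap2c (ENSMUSG00000028640.11) lies on chromosome 2, 172549593 to 172558622, plus strand.

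Prdm1, the gene that starts the programme, changed least. Its WT libraries were nearly equal, at 28.3, 29.8, 28.9 and 29.9 CPM, a coefficient of variation of 2.59%. The KO libraries were at 39.6, 52.6, 27.2 and 41.1 CPM, with a coefficient of variation of 25.9%. KO 3 was below all 4 WT libraries and the other 3 KO libraries were above them. The mean went from 29.2 ± 0.758 to 40.1 ± 10.4 CPM (SD, n = 4), with a log2 difference of 0.46 (SE 0.163, edgeR adjusted p = 0.0297). The call was lost without KO 2 (adjusted p = 0.0801), WT 1 (0.0683) or WT 3 (0.0553), and without KO 4 the difference was 0.47 (adjusted p = 0.0490). It was also lost with upper-quartile (difference 0.21), ribosomal protein (0.30), total-count (0.27) and cyclic loess scaling (0.20). Prdm1 (ENSMUSG00000038151.13) lies on chromosome 10, 44437177 to 44528501, minus strand.

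Sall4, whose product binds the NuRD deacetylase complex, was the most abundant of the 7 and varied most between WT libraries in absolute terms. It had 217, 172, 290 and 312 CPM in WT 1 to WT 4 and 320, 514, 384 and 330 CPM in KO 1 to KO 4. The groups came close to touching, since the lowest KO library (KO 1) was 1.03 times the highest WT library (WT 4). The mean went from 248 ± 65.1 to 387 ± 89.1 CPM (SD, n = 4), with a log2 difference of 0.64 (SE 0.190, edgeR adjusted p = 0.0117). Without KO 4 the difference was 0.74 (adjusted p = 0.0111), and the call was lost with upper-quartile scaling (difference 0.41, adjusted p = 0.0797). Sall4 (ENSMUSG00000027547.17) lies on chromosome 2, 168748332 to 168767943, minus strand. The noncoding gene Gm14261 on the opposite strand covers 9.5% of its exon bases and had 18 to 59 counts per library, against 2953 to 9064 for Sall4.

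Kit was measured at 61.3, 57.4, 78.4 and 79.8 CPM in WT 1 to WT 4 and at 90.7, 122, 87.4 and 104 CPM in KO 1 to KO 4. All KO libraries were above all WT libraries, by a margin of 1.10 times between the nearest. The mean went from 69.2 ± 11.5 to 101 ± 15.6 CPM (SD, n = 4), with a log2 difference of 0.55 (SE 0.140, edgeR adjusted p = 0.00521). Kit is also active in Leydig cell precursors and mast cells. KO 4, with its high steroidogenic markers, was second to KO 2 for Kit, and without it the difference was 0.56 (adjusted p = 0.0126). The 6 macrophage and mast cell markers summed to 4.14 to 6.92 CPM in WT and 1.30 to 2.92 CPM in KO. The mast cell genes Cpa3, Tpsb2 and Fcer1a were picked after their values were seen. Cpa3 had 1 to 7 counts per library, Tpsb2 0 to 10 and Fcer1a 0 to 4, with 0 in 5 of the 8 libraries. The part of these markers in the result was not tested. The call was lost with upper-quartile scaling (difference 0.31, adjusted p = 0.0606). Kit (ENSMUSG00000005672.12) lies on chromosome 5, 75574916 to 75656722, plus strand.

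Alpl was at 27.8, 35.7, 27.8 and 22.7 CPM in WT 1 to WT 4 and at 41.9, 54.2, 48.3 and 44.7 CPM in KO 1 to KO 4. The KO libraries were close to each other, with a coefficient of variation of 11.3%, and all were above the highest WT library, WT 2. The mean went from 28.5 ± 5.38 to 47.3 ± 5.34 CPM (SD, n = 4), with a log2 difference of 0.73 (SE 0.142, edgeR adjusted p = 0.000864). It kept its call under each other scaling (0.48 to 0.76), and without KO 4 the difference was 0.78. Alpl is also expressed by mesenchymal cells. The 6 interstitial and peritubular markers summed to 84.7 to 99.4 CPM in WT and 85.2 to 106 CPM in KO, but did not move together. Col1a1 (37.6 to 58.9 CPM in the means) and Tcf21 (1.01 to 2.46 CPM) rose, Myh11 (21.7 to 7.35 CPM) fell, and Acta2, Nr2f2 and Pdgfra did not pass. Their part in the result for Alpl was not tested. Alpl (ENSMUSG00000028766.10) lies on chromosome 4, 137741733 to 137796384, minus strand.

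Fut4 and Prdm14 had the lowest counts of the 7 in WT, and Fut4 had the lowest in KO: 18 to 42 counts in WT and 42 to 102 in KO. It had 0.922, 2.15, 2.04 and 1.42 CPM in WT 1 to WT 4 and 6.49, 5.79, 3.10 and 6.04 CPM in KO 1 to KO 4. KO 3 was again the lowest KO library, and still 1.44 times the highest WT library. The mean rose 3.28-fold, from 1.63 ± 0.573 to 5.35 ± 1.53 CPM (SD, n = 4), with a log2 difference of 1.71 (SE 0.316, edgeR adjusted p = 0.000592). Over the other scalings it ran from 1.47 to 2.04, and it was 1.67 without KO 4. Fut4 (ENSMUSG00000049307.6) lies on chromosome 9, 14748320 to 14752393, minus strand.

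**Figure D2:**
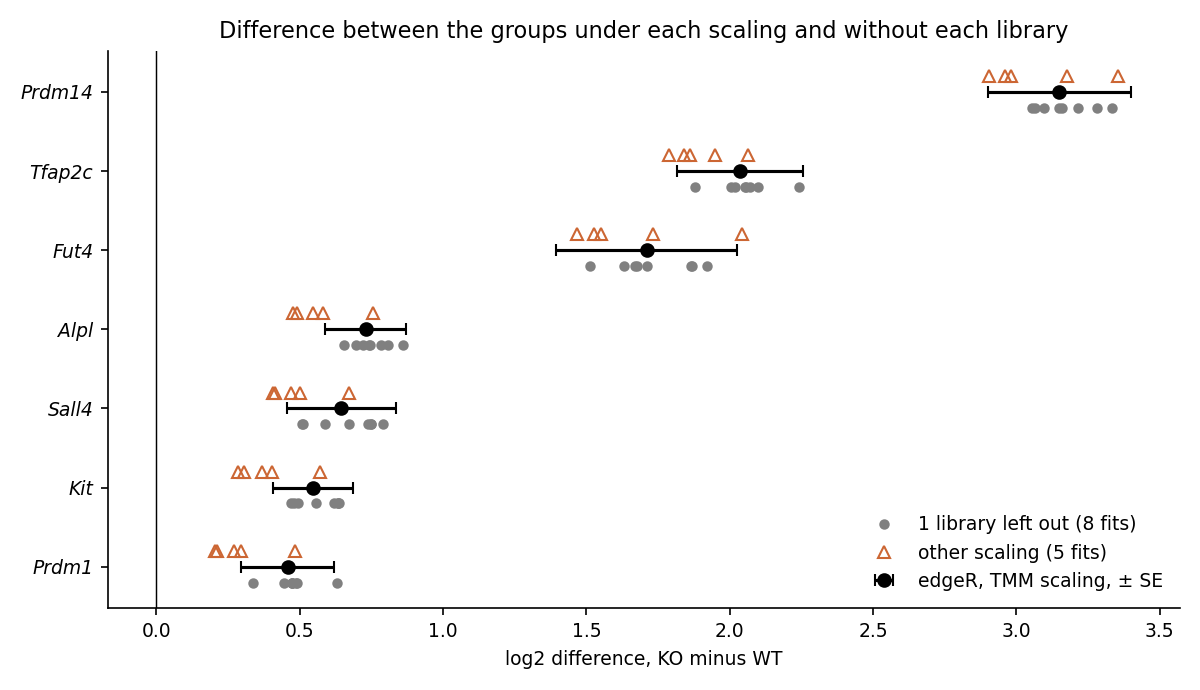
Log2 difference (KO minus WT) of each gene from edgeR with TMM scaling (black, with SE), with 5 other scalings (triangles) and with 1 library left out (grey). Prdm14, Tfap2c and Fut4 stay above 1.4 throughout, while the other 4 genes lie between 0.20 and 0.86 and move toward 0 under 4 of the scalings.

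Among the KO libraries KO 2 was highest for 6 genes, the exception being Fut4 (KO 1). KO 3 was lowest for Prdm1, Prdm14, Tfap2c, Kit and Fut4, but second highest for Sall4 and Alpl. KO 2 also had the fewest detected genes, 33425 against 36613 to 41470 in the others, and the lowest TMM factor, 0.885 against 0.941 to 1.11, and the part of these in the levels was not tested. Among the WT libraries WT 2 was highest for Prdm14, Tfap2c, Alpl and Fut4 and lowest for Sall4 and Kit, for which WT 4 was highest.

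Levels of different genes were compared per length, as CPM per kb of exon, over the union of the exons of all transcripts. In the WT libraries the order was Sall4 (44.7 ± 11.8, SD, n = 4), Kit (7.77 ± 1.29), Alpl (7.07 ± 1.33), Prdm1 (5.24 ± 0.136), Tfap2c (1.69 ± 0.187), Prdm14 (0.633 ± 0.124) and Fut4 (0.401 ± 0.141). Neighbours in this order were apart in all 4 libraries except Kit with Alpl and Prdm14 with Fut4, whose ranges overlapped. In the KO libraries Sall4 was again first at 69.95 ± 16.1 and Fut4 last at 1.31 ± 0.376 CPM per kb. The 3 factors that act together in specification lay close together there: Prdm1 at 7.19 ± 1.86, Tfap2c at 6.91 ± 2.20 and Prdm14 at 5.61 ± 1.53 CPM per kb (SD, n = 4), with overlapping ranges. In WT the mean per kb of Prdm1 was 3.10 times that of Tfap2c, and that of Tfap2c was 2.67 times that of Prdm14. Among tested protein-coding genes the mean level per kb of Prdm14 lay at percentile 11.8 in WT and 60.1 in KO, that of Tfap2c at 32.2 and 64.9, and that of Prdm1 at 62.9 and 65.9. With the length of the longest transcript instead, the WT order was the same. The KO means were then 8.52 for Tfap2c, 7.59 for Prdm1 and 5.61 for Prdm14. Kit (19.3) was then above Alpl (18.7) in KO, while per kb of exon union Alpl (11.7) was above Kit (11.3).

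**Figure D3:**
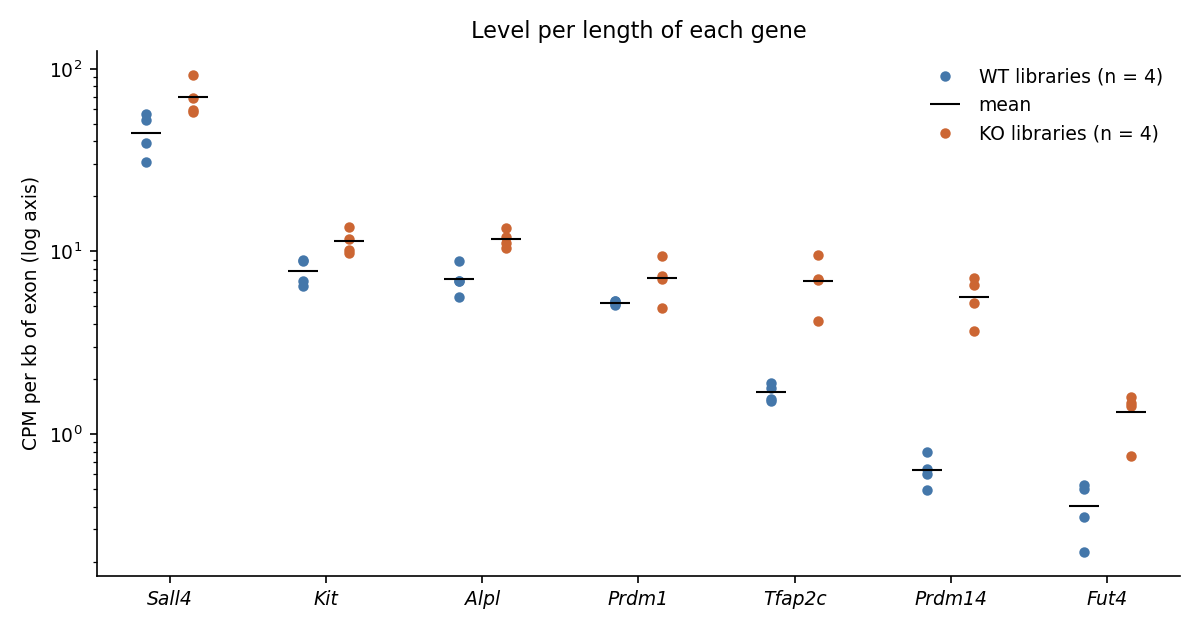
CPM per kb of exon (log axis) of each gene in the 4 WT and 4 KO libraries, with the group mean as a bar, in the order of the WT means. Prdm1, Tfap2c and Prdm14 are spread from 5.24 to 0.633 in WT and lie between 5.61 and 7.19 in KO.

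The ratio of 2 genes' counts within a library does not depend on how libraries are scaled to each other, so it shows which of the 7 shifted against which. For all 21 pairs the exact permutation test was two-sided and could give no p below 0.0286 with 4 libraries a group. Without KO 4 each of the 21 shifts kept its sign. The groups did not overlap for 10 pairs, each with p = 0.0286 by the exact test, but adjusted over the 21 pairs none passed (adjusted p = 0.0600). Prdm14 took part in 6 of the 10, since its ratio to each of the other genes was higher in all KO libraries. The log2 ratio of Prdm1 to Prdm14 was 4.17 ± 0.265 in WT and 1.48 ± 0.165 in KO (SD, n = 4), so it fell by 2.69, and the ratio of Prdm14 to Tfap2c was higher by 1.13 in KO. The ratio of Tfap2c to Kit was higher by 1.43 and that to Alpl by 1.23. The ratio of Prdm1 to Tfap2c fell by 1.56 and that of Prdm1 to Fut4 fell by 1.30. Shifts for the pairs among Prdm1, Sall4, Kit and Alpl lay between -0.32 and 0.11, with overlapping groups (exact p from 0.286 to 0.8286), which does not show that these 4 changed alike.

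**Figure D4:**
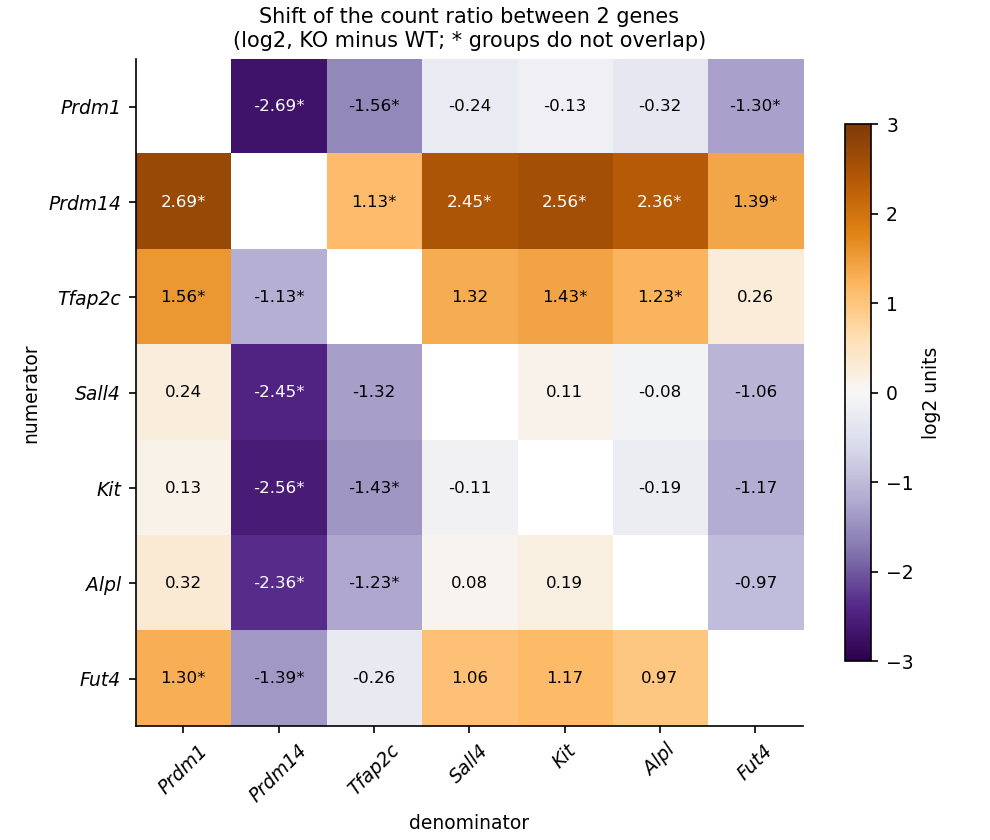
Shift between the groups (mean KO minus mean WT) of the log2 count ratio of each gene in a row to each gene in a column. Stars mark ratios whose 4 KO and 4 WT values do not overlap; the row of Prdm14 is positive and starred throughout, and its smallest shift is 1.13, against Tfap2c.

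Genes that work beside the 7 in primordial germ cells were mostly higher as well. The 27 companions divided into 19 higher, 2 lower and 6 not passing, and their median log2 difference was 1.15. Shares of 70.4% higher and 7.41% lower stood beside 36.9% and 24.6% of the genes within the abundance range of the 7. Those with the lowest p were the pluripotency factors Nanog (3.61) and Sox2 (4.49) and Dppa3 (4.04), whose product shields methylation in the early embryo and which has close copies in the genome. Ifitm3 (3.54), an early marker of germ cell competence, Pou5f1 (1.495) and Nanos3 (2.10), which protects migrating germ cells from death, also rose and were picked after their values were seen. The 2 that fell were Bmp8b (-1.19), a BMP ligand gene, and Elf3 (-1.22).

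**Figure D5:**
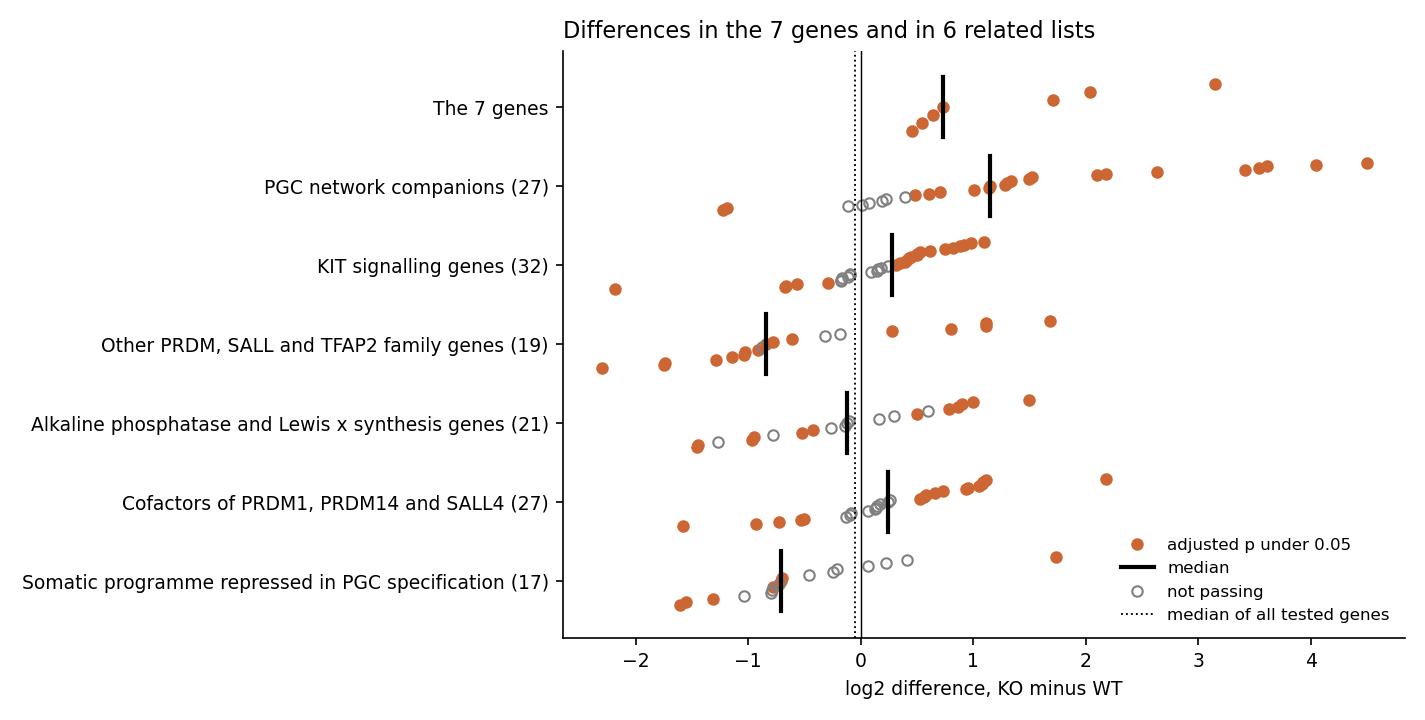
Log2 difference (KO minus WT) of each tested gene among the 7 and in 6 related lists, filled where edgeR's adjusted p was under 0.05, with list medians as bars and the median of all tested genes as a dotted line. Numbers in brackets are genes tested; the companions have a median of 1.15 and the paralogues one of -0.84.

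Paralogues of the 4 transcription factors moved mainly the other way. Of 20 such genes Tfap2d was not tested, and among the 19 tested 11 fell, 5 rose and 3 missed the threshold (median -0.84). The share that fell was 57.9%, against 28.2% of all tested genes. The share that rose, 26.3%, was close to the 25.3% of all tested genes but below the 36.9% within that range. Beside Tfap2c the AP-2 genes fell: Tfap2a by 1.03, Tfap2e by 0.78 and Tfap2b by 2.30 on the log2 scale, and beside Sall4, Sall1 fell by 1.03 and Sall3 by 0.84; these 5 were singled out after their values were seen. Tfap2b rested on few counts, with a mean of 1.24 CPM in WT and 0.248 CPM in KO. It lost its call without WT 2 (difference -1.37, edgeR adjusted p = 0.102), and Sall1 was at -0.68 without WT 2. With cyclic loess scaling Tfap2b (adjusted p = 0.138) and Tfap2e (0.0747) lost their calls. Of the PRDM genes, Prdm9, the meiotic hotspot methyltransferase, rose by 1.68, Prdm15 by 0.80 and Prdm4 by 0.28, as did Sall2 (1.11). Prdm4 lost its call under 4 of the 5 other scalings (0.01 to 0.14) and without KO 4, WT 1 or WT 4 (adjusted p = 0.0512 to 0.1001). Prdm11 (-0.91), Mecom (-1.75), a PRDM gene of blood stem cells, and Prdm16 (-0.61) had the lowest p among those that fell.

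Kitl, the ligand gene normally active in somatic cells and picked after its values were seen, was at 1.81 to 5.98 CPM in WT and 1.92 to 6.23 CPM in KO and did not pass (log2 difference -0.11, edgeR adjusted p = 0.830). Of 32 KIT signalling genes 16 rose, 5 fell and 11 missed the threshold (median 0.28). That is 50% higher and 15.6% lower, against 36.9% and 24.6% of the genes within the abundance range of the 7. Cbl (0.91), a ubiquitin ligase that removes activated receptors, Sos1 (0.98), an exchange factor for RAS, and Foxo3 (1.09), a transcription factor that AKT restrains, rose with the lowest p. The SRC family kinase genes Src (-0.67) and Lyn (-2.18), the phosphatase gene Ptpn6 (-0.66), Mapk3 (-0.56) and Mtor (-0.29) fell. Mtor lost its call without any 1 library other than KO 3 (adjusted p = 0.0509 to 0.181) and with RLE scaling (0.0717). Of the genes of cell death and survival, picked after their values were seen, Bax rose by 0.88, Bcl2l11 by 0.50 and Bad by 0.50. Bcl2 had 3.28 CPM in WT and 3.08 CPM in KO and did not pass (edgeR adjusted p = 0.816). The more abundant Bcl2l1 had 163 CPM in WT and 145 CPM in KO and did not pass either (edgeR adjusted p = 0.266). Bcl2l11 lost its call without WT 1 (0.0600) and under 4 of the 5 other scalings. The counts depended on scaling: with upper-quartile scaling 7 genes were higher and 9 lower, with total-count and cyclic loess scaling 8 and 9, and with ribosomal protein scaling 8 and 6.

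Enzymes around ALPL and FUT4 were called in shares close to those of all tested genes. Of 22 genes Akp3 was not tested, and among the 21 tested 6 rose, 6 fell and 9 missed the threshold (median -0.12), so that 28.6% were called in each direction against 25.3% higher and 28.2% lower over all tested genes. Fut9, which makes most Lewis x in mouse embryos and brain, fell by 1.45 on the log2 scale (SE 0.280, edgeR adjusted p = 0.000790), opposite to Fut4. Its level was 6.40, 7.96, 4.14 and 4.08 CPM in WT 1 to WT 4 and 2.19, 1.47, 2.21 and 2.38 CPM in KO 1 to KO 4. The log2 count ratio of Fut4 to Fut9 was between -2.76 and -1.01 in WT and between 0.48 and 1.95 in KO (exact two-sided permutation p = 0.0286, the smallest possible; a comparison chosen after the values were seen). The galactosyltransferase gene B4galt1 (1.49), the fucosyltransferase gene Pofut1 (1.00), which acts on NOTCH receptors, and Tsta3 (0.86), which makes the fucose donor, rose. B4galt2 (-0.52) and the sialyltransferase gene St3gal4 (-0.96) fell. Without KO 2 the number of falls was 3.

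Of 27 cofactors of PRDM1, PRDM14 and SALL4 12 rose, 5 fell and 10 missed the threshold (median 0.24). Shares of 44.4% higher and 18.5% lower stood beside 36.9% and 24.6% of the genes within the abundance range of the 7. Cbfa2t2, which encodes the corepressor that PRDM14 needs, rose by 1.084, from 42.7 ± 5.41 to 90.4 ± 11.5 CPM (SD, n = 4). Its paralogues Cbfa2t3 (-1.58) and Runx1t1 (-0.93) fell. Prmt5, the arginine methyltransferase that joins PRDM1 in germ cells, did not pass (0.07, edgeR adjusted p = 0.651), with a sign that flipped to between -0.19 and -0.073 under 4 other scalings, while its partner Wdr77 rose by 1.11. The NuRD genes Mta1 (2.18) and Hdac1 (1.07) rose. Ehmt2 (-0.73) and Kdm1a (-0.51), which act on histone H3 lysine methylation, and the Polycomb gene Eed (-0.53) fell. Ehmt1 (0.56), the partner gene of Ehmt2, and the Polycomb genes Ezh2 (1.06) and Suz12 (0.58) were higher. Jarid2, also a Polycomb gene, did not pass (0.12, edgeR adjusted p = 0.328). Ehmt1, Ezh2, Suz12 and Jarid2 were added after their values were seen. Cbfa2t2 and Prmt5 were picked after their values were seen.

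Of 17 mesodermal and HOX genes that PRDM1 is known to hold down during specification 6 fell, 1 rose and 10 missed the threshold (median -0.70). The share that fell, 35.3%, compares with 28.2% of all tested genes, and the share that rose, 5.88%, with 25.3%. T (Brachyury) fell by 1.31, Fgf8 by 0.70 and Mixl1 by 1.55 on the log2 scale. Evx1 rose by 1.74 from a mean of 0.411 CPM in WT to 1.37 CPM in KO, and did not pass the filter of 1 CPM in 4 libraries, which was applied to CPM of the total counts, before TMM scaling. With cyclic loess scaling 2 genes were higher and 3 lower.

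Profiles over the 8 libraries were compared as log2(CPM + 1) centred on each gene's mean, and likeness was the root mean square difference from the gene in question, among 13807 protein-coding genes. Nearest to Prdm14 were Spred2 (0.168), an inhibitor of RAS signalling, and Sephs2 (0.169), and nearest to Tfap2c were Jun (0.124) and Id3 (0.140). Plk3 (0.158) and Ctbp2 (0.182) were nearest to Fut4. For the genes with smaller differences the nearest were Celf1 (0.0598) and Ly6e (0.0615) to Kit, Dmrt3 (0.0750) and Odc1 (0.0874) to Alpl, Dcaf7 (0.0763) and Stk35 (0.106) to Sall4, and Sumo2 (0.0884) and Ccr7 (0.0930) to Prdm1. Ccr7 lost its edgeR call without any 1 library other than WT 4 or KO 3 (adjusted p = 0.0546 to 0.0939). Adding 1 shrinks the differences of genes at low CPM, so likeness here need not be likeness of the log2 difference. Id3 had a log2 difference of 3.34 (0.464 CPM in WT to 4.69 CPM in KO in the means), against 2.03 for Tfap2c. That of Ccr7 was 0.77 (1.63 to 2.77 CPM), against 0.46 for Prdm1.

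RefSeq promoter sequences (GRCm38.p6, 250 bases before to 50 after the start) were at hand for 4 of the 7 genes: Prdm1, Kit, Alpl and Fut4. The AP-2 motif GCCNNNGGC reads the same on both strands and was chosen because Tfap2c encodes an AP-2 factor. Tfap2c rose, while the AP-2 genes Tfap2a, Tfap2b and Tfap2e fell. The motif is shown in capitals in the upstream sequence of the surface genes Alpl and Kit, up to the first GENCODE exon. The Alpl stretch is chr4:137796385-137796634, minus strand, and the Kit stretch is chr5:75574737-75574915, plus strand.
Alpl: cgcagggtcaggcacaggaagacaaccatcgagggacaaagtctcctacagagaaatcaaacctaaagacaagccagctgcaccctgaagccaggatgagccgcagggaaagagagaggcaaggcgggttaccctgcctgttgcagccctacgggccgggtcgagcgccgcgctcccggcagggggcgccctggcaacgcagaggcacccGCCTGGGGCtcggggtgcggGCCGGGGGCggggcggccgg
Kit: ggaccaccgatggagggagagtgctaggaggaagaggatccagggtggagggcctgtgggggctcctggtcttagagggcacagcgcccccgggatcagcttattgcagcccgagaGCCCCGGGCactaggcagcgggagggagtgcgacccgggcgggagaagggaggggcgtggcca
The whole Alpl promoter held 3 matches, 2 of them in the stretch above and 2 of the 3 overlapping a GC box (GGGCGG, either strand), and the promoter of Kit held 1. Of all 32851 promoters of 300 bases in the table, 16.6% held the motif at least once and 0.444% held 3 or more. The motif goes with CpG content: of the 8701 promoters with 20 or more CpG, 34.7% held it and 1.56% held 3 or more. The promoters of Alpl (26 CpG), Kit (20), Prdm1 (20) and Fut4 (18) were all above the median of 7 CpG. That of Fut4 held 1 match and that of Prdm1 none. The RefSeq start of Prdm1 lay 69753 bases inside the GENCODE gene and that of Fut4 271 bases inside, so both windows lay within the genes. A second RefSeq start of Alpl, also inside the gene, had 4 CpG and no match. The motifs of PRDM14 (GGTCTCTAA) and BLIMP1 (AAGTGAAAG), held by 0.256% and 0.444% of all promoters, were searched as well. Neither had a match in the promoters of the 4 genes, and nor did the octamer ATGCAAAT, the E-box CACGTG or the E2F6 motif TTCCCGC. Matches describe the letters only.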

How the data were processed

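RNA was sequenced from 8 libraries of prospermatogonia, 4 labelled KO and 4 WT, made from 5 ng of total RNA each with a kit that carries molecular identifiers, per the labels' protocols. The authors deposited raw counts per gene. Among tools, mm10, STAR, Trim Galore, DESeq2, edgeR and featureCounts 1.5.0 are listed without order in the submitters' processing notes. No source used here gives the annotation release, the strand setting or the use of the molecular identifiers. Of 55401 identifiers 55141 matched GENCODE M21 without the version, and 6261 genes had no count.

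Counts were fitted in edgeR 4.0.16 (R 4.3.3) with filterByExpr, TMM scaling and a quasi-likelihood test of KO against WT over all 24005 genes kept, and p-values were adjusted by Benjamini-Hochberg over all of them. A gene passed at an adjusted p under 0.05. The SE is the log2 difference divided by the root of F. Replicates differed by more than counting noise (chi-square per degree of freedom from 7.34 to 26.5).

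The genes and lists were chosen with earlier results of these data known. Named genes were Tet1, the 7 genes, up to 3 passing genes per list and direction with the lowest p (all where 5 or fewer passed), the 2 most abundant of each marker list and the 2 nearest profiles of each gene. Further genes were picked after their values were seen and, apart from the interstitial markers given beside Alpl, are marked so. Some genes that fall under these rules are given only in the counts or are not reported here. Marker lists for germ, Sertoli, Leydig, interstitial, endothelial, macrophage with mast, and erythroid cells were summed per library and compared by exact permutation. Endothelial markers summed to 57.1 to 68.8 CPM in WT and 55.9 to 69.8 CPM in KO, and erythroid ones to 17.9 to 22.0 and 11.6 to 18.6 CPM. The endothelial sums hide opposite changes, since 4 genes were tested, of which 1 was called higher and 3 lower. Pecam1 rose (15.3 to 30.5 CPM in the means), and Cdh5 (26.3 to 16.9 CPM) was among those that fell. Alternatives were DESeq2 1.42.0, limma 3.58.1 with library weights, robust dispersion, 5 scalings, 2 filters, stricter thresholds, coding genes only, a replicate block and leaving out each library.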

Additional observations from a re-analysis of the deposited data

Results flagged for a closer look

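In 178 sets of 4 libraries (89 named genes in 2 groups), the highest or lowest value was set apart from the other 3 in 19, where chance gives about 1 in 20. None of the 7 genes was among them.

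The gap left KO 2 highest in its group for Cbl at 224 CPM against 186 to 188 CPM, Kdm1a at 362 CPM against 290.1 to 302 CPM and Sall1 at 14.1 CPM against 6.29 to 7.23 CPM.

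The gap left KO 3 lowest in its group for Nanog at 17.6 CPM against 30.5 to 32.9 CPM and Id3 at 2.51 CPM against 5.14 to 5.67 CPM.

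The gap left KO 4 highest in its group for Inha at 58.3 CPM against 2.21 to 2.36 CPM, Gata4 at 17.4 CPM against 7.15 to 7.95 CPM and Cyp17a1 at 862 CPM against 1.55 to 4.70 CPM. Also highest there was Cyp11a1 at 369 CPM against 1.33 to 4.37 CPM.

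The gap left WT 2 highest in its group for Sall2 at 16.1 CPM against 9.48 to 10.6 CPM, Cbfa2t3 at 55.1 CPM against 35.4 to 38.7 CPM and Ehmt2 at 1375 CPM against 1118 to 1153 CPM. Also highest there were Fgf8 at 23.6 CPM against 18.8 to 19.2 CPM, Mixl1 at 9.41 CPM against 3.41 to 4.27 CPM and Dmrt3 at 10.3 CPM against 6.41 to 7.02 CPM. Also highest there were Odc1 at 173 CPM against 109 to 117 CPM, Tfap2b at 3.02 CPM against 0.615 to 0.682 CPM and Bcl2l11 at 19.4 CPM against 13.01 to 13.5 CPM.

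The gap left WT 3 highest in its group for Pdgfra at 25.8 CPM against 20.2 to 20.97 CPM.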

How the results depend on the processing

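The 7 genes kept a positive difference in all 22 alternatives, and Prdm14, Tfap2c and Fut4 also kept their call in each. The number of the 7 called higher was 4 with upper-quartile scaling and 3 when a difference over 0.5 was required (glmTreat), and leaving out 1 library gave 6 to 7. Over all genes glmTreat called 7324. KIT signalling genes called higher were 7 with upper-quartile, 8 with each of ribosomal protein, total-count and cyclic loess scaling, and 6 with glmTreat, and those called lower were 9 with upper-quartile, total-count and loess scaling and 2 with glmTreat. Paralogues called lower were 7 with glmTreat and 7 at an adjusted p under 0.01. Enzyme genes called lower were 3 with either, and 3 to 7 when 1 library was left out. Cofactors called lower were 2 with glmTreat. Somatic programme genes called higher were 2 with loess scaling and 0 with the filter of 1 CPM, and those called lower were 3 with loess scaling and 3 with glmTreat. Signs turned for Cyp11a1, at -0.77 without KO 4 and up to 4.95 without KO 2, and for 4 values that had not passed. With 1 library left out, the Sall4 to Alpl ratio ran from -0.36 to 0.14 (0.01 without WT 3), Bcl2 from -0.30 to 0.22 (0.01 without KO 2) and Kitl from -0.51 to 0.19 (0.10 without KO 2, 0.11 without KO 3). Bcl2 was at 0.22 with loess, 0.087 with limma and 0.00063 with the replicate block, and Kitl at 0.17 with loess and 0.073 with limma. Prmt5 was at -0.17 with upper-quartile, -0.073 with ribosomal protein, -0.11 with total-count and -0.19 with loess scaling. The cause was not tested, except that a stricter threshold calls fewer genes. The median of all genes was -0.29 with upper-quartile, -0.23 with total-count and -0.18 with ribosomal protein scaling, against -0.05. Same-numbered libraries did not deviate together (r from -0.21 to 0.15), so the numbers were not taken as pairs. KO 1 and WT 1, which share a leading number, had the highest of these r, 0.148, while WT 4 with KO 2 had 0.244. Whether KO 1 and WT 1 are related was not tested. With the replicate number as a block all 7 genes and 11518 genes in all were called. DESeq2 called 12980 genes and all 7. Depth limits Fut4 and Prdm14 most, at 18 to 42 and 24 to 35 counts in WT.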
